A study of Arabidopsis thaliana with 21 samples.

Results

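The NADPH oxidases of Arabidopsis thaliana, the respiratory burst oxidase homologs RBOHA to RBOHJ, were followed on arrays of plants sampled 1.5 h after arsenate was given. Every row of their 10 loci was taken by locus identifier from a NimbleGen expression table, a rule that uses no measured value. This gave 11 rows of 37118, since RBOHB has 2 rows, and 10 of the 32627 loci on the array. The RefSeq gene table lists RBOHC under the symbol RHD2 and gives RBOHE, RBOHG, RBOHH, RBOHI and RBOHJ no symbol, so the family's usual letters are used here.

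RBOH proteins sit in the plasma membrane, take electrons from NADPH inside the cell and pass them to oxygen outside, which makes superoxide in the apoplast. Calcium binding at their EF-hands and phosphorylation by receptor-associated and calcium-dependent kinases switch them on within minutes, so much of their regulation is on the protein rather than the transcript. In Arabidopsis RBOHD makes most of the oxidative burst of immune and stress responses, RBOHF acts with it in abscisic acid signalling and in lignification at the Casparian strip, RBOHC drives root hair growth, and RBOHH and RBOHJ drive pollen tube growth.

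All plants were of the Col-0 accession. They had 7 days on medium holding 1 mM phosphate, 2 days on medium without it, and were then placed in liquid medium. Wild-type control plants received no supplement, wild-type arsenate plants received 30 µM arsenate, and plants labelled OXW6, described as overexpressing WRKY6, also received 30 µM arsenate. Each group held 3 independent biological samples on 1 array each. No untreated OXW6 plants were among the samples used here, and the promoter and line behind OXW6 are not given in the sources used here. Arsenate is a phosphate analog that enters plant cells through phosphate transporters, and WRKY6 is a WRKY-family regulator of phosphate transport genes.

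All values are log2 expression as the authors deposited them, and differences are on the same scale. Array medians lay between 12.33 and 12.42, array maxima between 15.95 and 15.97, and replicate arrays correlated across features with Pearson's r of 0.980 to 0.996. A change was called at an adjusted p under 0.05 from limma with Benjamini-Hochberg adjustment over all features. WRKY6 itself did not separate the OXW6 arrays: the group means were 15.55 in control, 15.84 in wild-type arsenate and 15.83 in OXW6 arsenate, and OXW6 minus wild type was -0.0079 (95% interval -0.15 to 0.14, limma adjusted p = 0.99), on a feature close to the top of the scale. The group is therefore called the plants labelled OXW6. The 6 green tissue markers averaged 15.46 to 15.67 per array and the 5 root markers 14.09 to 14.97, so both kinds of tissue were present, while the 6 pollen markers averaged 9.37 to 9.89, close to the lower quartiles of the arrays (9.40 to 9.60). In whole plants, fewer cells of a type and less RNA per cell cannot be told apart.

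The first comparison set wild-type arsenate against wild-type control and asked what 1.5 h of arsenate did to the family. RBOHJ rose by a small amount at the low end of the scale, and it was the 1 locus of 10 that passed the test, where 39.1% of all features passed (18.9% higher and 20.2% lower). RBOHD was higher on every arsenate array without passing. RBOHG, RBOHI, RBOHB and RBOHE had lower means with arsenate, and RBOHA a higher one, with replicate arrays spread widely, and these 5 loci passed when arrays of the same replicate number were compared with each other. At an unadjusted p under 0.05 there were 2 loci, RBOHD and RBOHJ, against 48.9% of all features, with RBOHB counted by the brighter of its rows. The median difference of the 10 loci was -0.062, beside -0.019 over all features and -0.064 over features of protein-coding nuclear loci.

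Replicate numbers carried a large part of the spread within groups. Arrays with replicate number 2 were the lowest of their group for 6 of the 10 loci in control, 8 in wild-type arsenate and 6 in OXW6 arsenate, against 35.2%, 38.6% and 38.8% of all features. Arrays with number 1 were the highest for 8, 7 and 6 loci, against 34.4%, 29.4% and 39.2% of all features. With the replicate number as a block in the limma fit, 6 of 10 loci passed between wild-type arsenate and control, with RBOHA and RBOHJ higher and RBOHB, RBOHE, RBOHG and RBOHI lower, where 50.3% of all features passed (23.7% higher and 26.6% lower). This count rested on few arrays: it was 1 without the arrays of number 1, 4 without number 2 and 2 without number 3, each with the block.

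**Figure D1:**
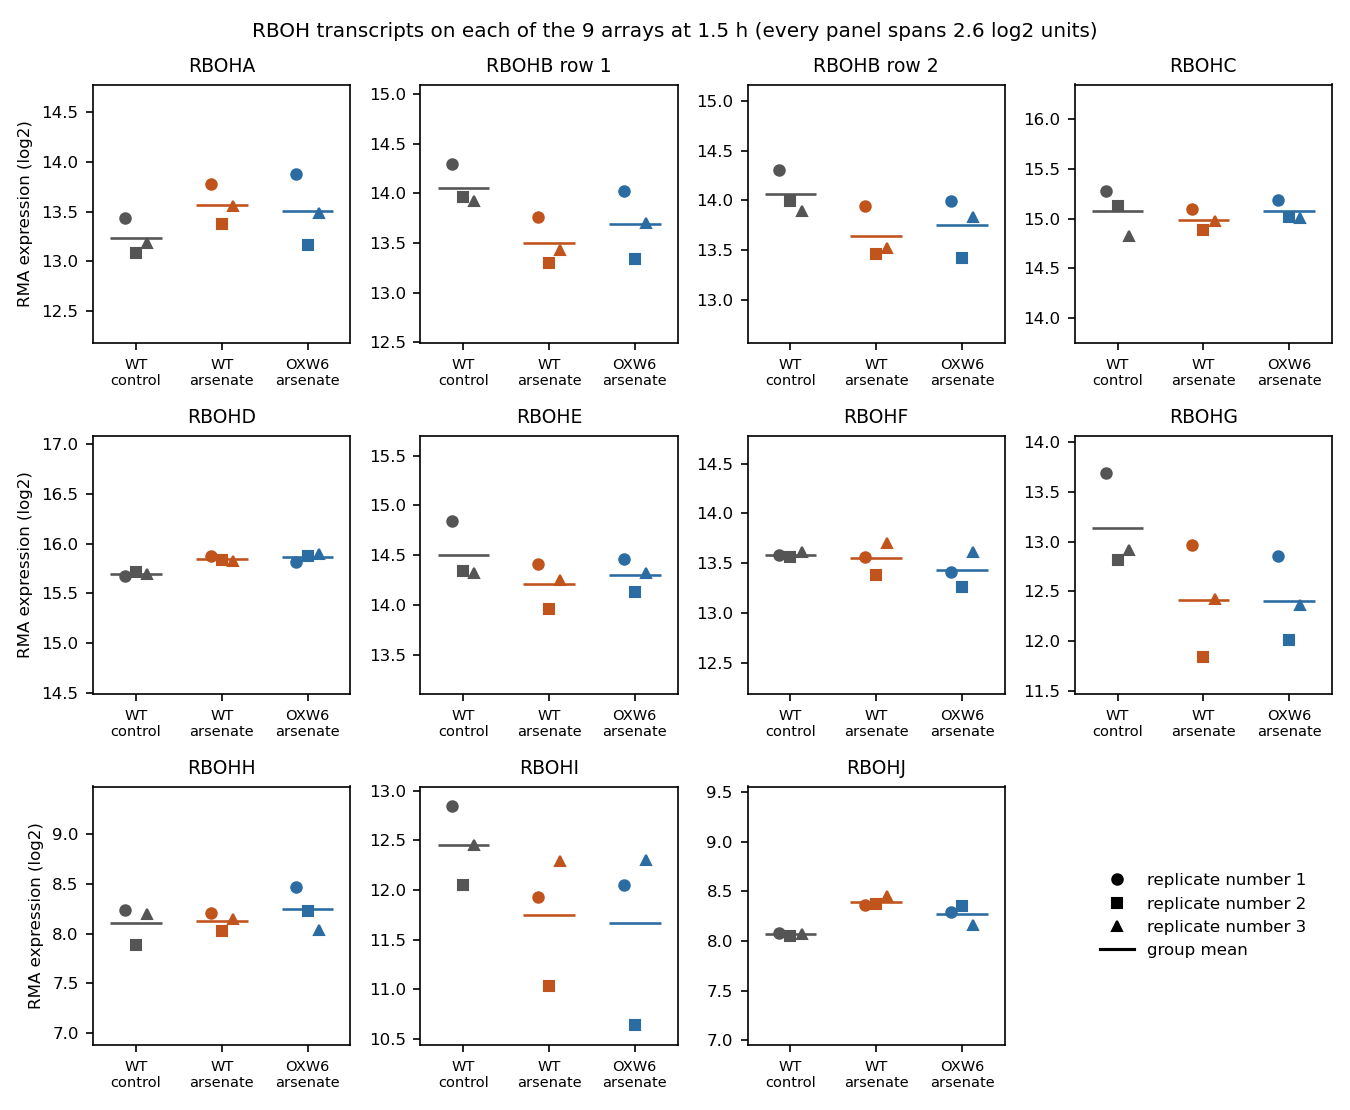
Log2 expression of the 11 RBOH rows on the 9 arrays at 1.5 h, by group, with circles, squares and triangles for replicate numbers 1, 2 and 3 and a line at each group mean; row 2 of RBOHB is the brighter one. Every panel spans the same range, so the tight groups of RBOHD and RBOHJ and the wide ones of RBOHG and RBOHI can be compared, and the arsenate arrays of RBOHD and RBOHJ lie wholly above their controls.

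RBOHD (AT5G47910), the main source of the stress-induced oxidative burst, read 15.68, 15.72 and 15.70 on the control arrays, 15.88, 15.83 and 15.83 on the wild-type arsenate arrays, and 15.82, 15.88 and 15.90 on the OXW6 arsenate arrays. All 6 arsenate arrays lay above all 3 control arrays. The wild-type difference was 0.15 ± 0.060 (SE, 95% interval 0.012 to 0.29, n = 3 a group) and missed the threshold with a limma adjusted p of 0.0809, and 0.0686 with the replicate block. It passed when each array was centred on its median (difference 0.23, adjusted p = 0.0209), with array weights (0.16, adjusted p = 0.0402) and with a trended and robust variance prior (adjusted p = 0.0080).

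The RBOHD feature was near the top of what the array reported: the group means were 0.27 below the highest value of the table in control and 0.12 below it in wild-type arsenate, which bounds the rise this feature could show. Among the 1443 features whose control mean lay within 0.1 of that of RBOHD, the median difference with arsenate was -0.027, 2.22% had a difference at least as high as that of RBOHD, and 0.762% were called higher. Groups did not overlap for 2 of the 10 loci, RBOHD and RBOHJ, both higher with arsenate, where 55.2% of all features had groups that did not overlap.

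RBOHF (AT1G64060), the other oxidase of abscisic acid signalling and the one of the Casparian strip, read 13.58, 13.56 and 13.61 in control, 13.56, 13.38 and 13.71 in wild-type arsenate and 13.41, 13.26 and 13.61 in OXW6 arsenate. The 3 control arrays lay inside the range of the wild-type arsenate arrays. The difference between them was -0.035 ± 0.11 (95% interval -0.29 to 0.22, limma adjusted p = 0.83), and its sign turned to 0.042 when arrays were centred on their medians.

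RBOHC (AT5G51060), the oxidase of root hair growth, read 15.27, 15.13 and 14.82 in control, 15.10, 14.88 and 14.97 in wild-type arsenate and 15.19, 15.02 and 15.01 in OXW6 arsenate. The groups overlapped, and pairs of the same number differed by -0.17, -0.25 and 0.15. The wild-type difference of -0.09 ± 0.12 had a 95% interval of -0.37 to 0.19 (limma adjusted p = 0.60).

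RBOHG (AT4G25090) had the largest difference of the 10 loci by size. It read 13.69, 12.82 and 12.92 in control, 12.96, 11.84 and 12.42 in wild-type arsenate and 12.85, 12.01 and 12.36 in OXW6 arsenate. The groups overlapped, since the arsenate array of number 1 lay above the control arrays of numbers 2 and 3, yet each arsenate array lay below the control array of its own number, by 0.73, 0.97 and 0.49. The difference of -0.73 had an SE of 0.35 without the block (95% interval -1.52 to 0.063, limma adjusted p = 0.127) and of 0.0996 with it (95% interval -0.97 to -0.49, adjusted p = 0.0018). In the block fit RBOHG passed also without number 1 (-0.73, adjusted p = 0.0209), without number 2 (-0.61, adjusted p = 0.0081) and without number 3 (-0.85, adjusted p = 0.018).

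RBOHI (AT4G11230) read 12.84, 12.05 and 12.46 in control, 11.93, 11.03 and 12.29 in wild-type arsenate and 12.05, 10.64 and 12.30 in OXW6 arsenate. Its replicates were the most spread of the family in both arsenate groups, with SDs of 0.65 and 0.89, and the array of number 2 was the lowest in every group. The wild-type difference was -0.70 ± 0.47 (95% interval -1.79 to 0.39, limma adjusted p = 0.274), and pairs differed by -0.91, -1.02 and -0.17. With the block the adjusted p was 0.0394, and it was 0.209 without number 1, 0.0758 without number 2 and 0.0371 without number 3.

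RBOHB (AT1G09090), known for its part in the after-ripening of seeds, has 2 rows, which are no replicates of each other. Whether both rows read the same transcripts was not tested. The brighter row, which stands for the locus in the counts, read 14.31, 13.99 and 13.90 in control, 13.94, 13.46 and 13.52 in wild-type arsenate and 13.99, 13.42 and 13.84 in OXW6 arsenate. The other row read 14.29, 13.96 and 13.92, then 13.77, 13.30 and 13.43, then 14.03, 13.34 and 13.70. Control and wild-type arsenate overlapped by a single array on the brighter row and not at all on the other.

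The brighter RBOHB row differed by -0.42 ± 0.19 with arsenate (limma adjusted p = 0.107, and 0.0137 with the block) and the other by -0.56 ± 0.20 (adjusted p = 0.0514, and 0.0032 with the block). Without the block the dimmer row also passed with array weights (a difference of -0.44), and at an unmoved difference with the low features left out, with the compared groups only, with a trended and robust prior and with protein-coding nuclear features only (adjusted p from 0.0281 to 0.0494). It passed without wild-type arsenate number 1 as well (-0.70, adjusted p = 0.0477), whereas the brighter row passed in none of these. Every pair of same-numbered arrays was lower with arsenate on both rows, by 0.37 to 0.53 on the brighter row and by 0.49 to 0.67 on the other. In the block fit the brighter row passed without number 2 (adjusted p = 0.0359) but not without number 1 (0.0714) or number 3 (0.0551), whereas the other row passed in all 3 cases (adjusted p from 0.0062 to 0.0417).

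RBOHE (AT1G19230), known from the anther tapetum, read 14.84, 14.34 and 14.32 in control, 14.41, 13.96 and 14.25 in wild-type arsenate and 14.46, 14.13 and 14.32 in OXW6 arsenate. Control and arsenate arrays overlapped, and pairs differed by -0.43, -0.38 and -0.068. The difference was -0.29 ± 0.17 (95% interval -0.69 to 0.11, limma adjusted p = 0.213). It passed with the block (adjusted p = 0.0362), though not without any 1 of the 3 numbers (adjusted p from 0.0552 to 0.173) or with arrays centred on their medians as well.

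RBOHA (AT5G07390) read 13.43, 13.08 and 13.18 in control, 13.78, 13.37 and 13.55 in wild-type arsenate and 13.88, 13.17 and 13.49 in OXW6 arsenate. Each wild-type arsenate array exceeded the control array of its number by a similar amount, 0.34, 0.29 and 0.37, although the groups overlapped. The difference of 0.34 ± 0.19 had a 95% interval of -0.096 to 0.77 (limma adjusted p = 0.19). With array weights it was 0.42 and passed (adjusted p = 0.0409). With the block the SE fell to 0.082 and the adjusted p was 0.0156, against 0.0506 without number 1, 0.0259 without number 2 and 0.146 without number 3.

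**Figure D2:**
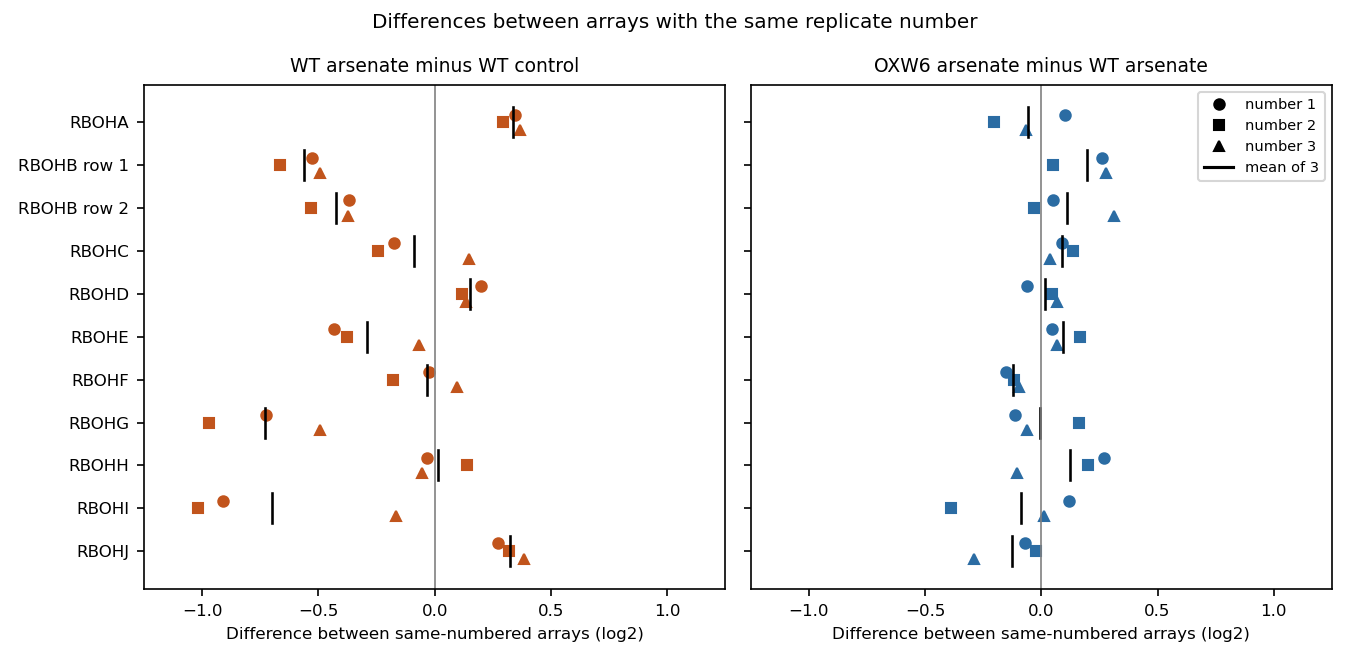
Differences of each RBOH row between arrays with the same replicate number, in log2, for wild-type arsenate minus control (left) and OXW6 arsenate minus wild-type arsenate (right), with a bar at the mean of the 3. On the left the 3 differences were all positive for RBOHA, RBOHD and RBOHJ and all negative for RBOHB, RBOHE, RBOHG and RBOHI, and on the right most rows straddle 0.

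Counted over pairs, 3 loci were higher with arsenate in all 3 same-numbered pairs (RBOHA, RBOHD and RBOHJ), 4 were lower in all 3 (RBOHB, RBOHE, RBOHG and RBOHI) and 3 were mixed (RBOHC, RBOHF and RBOHH). Of all features, 73.1% had 3 differences of one sign, so a like share of the family did. With the block, 7 loci had an unadjusted p under 0.05, against 57.1% of all features.

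RBOHJ (AT3G45810) and RBOHH (AT5G60010), the pair that acts in growing pollen tubes, were read at the low end of the array, where 3.17% to 12.1% of features lay below their values. RBOHJ read 8.08, 8.05 and 8.07 in control, 8.36, 8.37 and 8.45 in wild-type arsenate and 8.29, 8.35 and 8.16 in OXW6 arsenate. All 6 arsenate arrays were above the 3 control arrays, whose SD was 0.015. The wild-type difference was 0.33 ± 0.071 (95% interval 0.16 to 0.49, limma adjusted p = 0.0098, and 0.0104 with the block), and it passed with each single array left out (adjusted p from 0.0238 to 0.0379). With the block, its adjusted p was 0.0553 without number 1, 0.037 without number 2 and 0.085 without number 3.

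Rises of this size were common among features as dim as RBOHJ. Among the 1117 features with a control mean within 0.1 of its own, the median difference was 0.13, 18.5% had a difference at least as high and 16.2% were called higher. Features of pseudogenes, with a median level of 9.43, moved the same way: their median difference was 0.60 and 2157 of 3863 were called higher against 31 called lower. Pollen markers averaged 9.37 to 9.72 on the control arrays and 9.70 to 9.89 on the wild-type arsenate arrays, and 0 of 6 were called by limma without the block and 1 with it. The part of these shifts in the RBOHJ value was not tested, and with features below the 40 percentile of the table left out neither RBOHJ nor RBOHH was tested.

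RBOHH read 8.24, 7.89 and 8.20 in control, 8.20, 8.02 and 8.14 in wild-type arsenate and 8.47, 8.22 and 8.04 in OXW6 arsenate. The 3 wild-type arsenate arrays lay inside the range of the control arrays. The difference was 0.016 ± 0.13 (95% interval -0.29 to 0.32, limma adjusted p = 0.94), and it was -0.051 after a further quantile normalization.

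The second comparison set plants labelled OXW6 against wild type, both with arsenate, and asked whether the WRKY6 label came with other RBOH levels. No RBOH locus passed limma without the block (0 of 10) or with it (0 of 10), and 0 had an unadjusted p under 0.05 in either fit. Over all features 0.0108% passed without the block and 0.0323% with it, while 7.63% and 16.3% had an unadjusted p under 0.05. The median difference of the 10 loci was 0.0069, beside 0.014 over all features. The comparison uses the same wild-type arsenate arrays as the first.

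The intervals were narrow for RBOHD and wide for RBOHG and RBOHI. For RBOHD the OXW6 difference was 0.018 with a 95% interval of -0.12 to 0.16. Its means in wild-type arsenate and OXW6 arsenate lay 0.12 and 0.10 below the highest value of the table. That bounds the rise the RBOHD feature could show. For RBOHC the OXW6 difference was 0.088 with an interval of -0.20 to 0.37. For RBOHG it was -0.0041 with an interval of -0.80 to 0.79, and for RBOHI -0.085 with an interval of -1.17 to 1.00. With the block these became -0.24 to 0.24 for RBOHG and -0.62 to 0.45 for RBOHI.

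RBOHJ was the 1 locus whose OXW6 arrays (8.16 to 8.35) lay wholly below the wild-type arsenate arrays (8.36 to 8.45), where 10.5% of all features had groups that did not overlap. The difference of -0.13 ± 0.071 had a 95% interval of -0.29 to 0.037 (limma adjusted p = 0.66, and 0.42 with the block), and of the alternatives tried it passed with array weights only (-0.21, adjusted p = 0.0383). Pseudogene features had a median difference of -0.30 in the same comparison, with 0 of 3863 called, and the part of this shift was not tested.

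RBOHF was lower in the plants labelled OXW6 in all 3 pairs, by 0.15, 0.12 and 0.094, without passing (-0.12, 95% interval -0.38 to 0.14, limma adjusted p = 0.81, and 0.47 with the block). RBOHC and RBOHE were higher in all 3 pairs, by 0.037 to 0.14 and by 0.045 to 0.17, also without passing (adjusted p = 0.68 and 0.67 with the block). Of all features, 35.2% had 3 differences of one sign, and 4 of the 10 loci did. For RBOHA, RBOHB on its brighter row, RBOHD, RBOHG, RBOHH and RBOHI the pairs were of mixed sign.

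**Figure D3:**
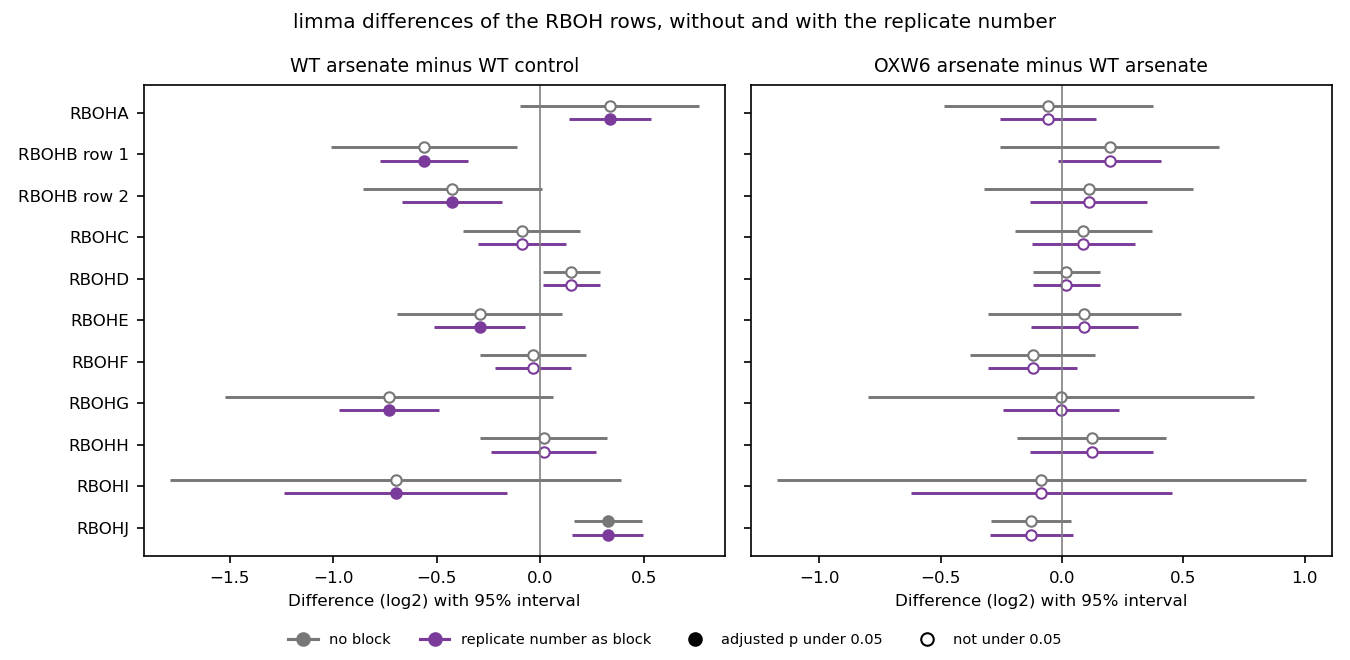
Differences of each RBOH row with 95% intervals from limma, in log2, for wild-type arsenate minus control (left) and OXW6 arsenate minus wild-type arsenate (right), in grey without and in purple with the replicate number as a block. Filled points have an adjusted p under 0.05: RBOHJ alone without the block, RBOHA, RBOHB, RBOHE, RBOHG, RBOHI and RBOHJ on the left with it, and none on the right.

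The third comparison set plants labelled OXW6 with arsenate against wild-type control, so genotype and arsenate differ together, and it shares arrays with both others. Without the block 0 of 10 loci passed limma, where 20.6% of all features did (8.12% higher and 12.5% lower), and 2 (RBOHD and RBOHJ) had an unadjusted p under 0.05, against 32.8%. The same 2 loci had groups that did not overlap, both higher with arsenate, against 35.8% of all features. RBOHD differed by 0.17 ± 0.060 (adjusted p = 0.0893) and RBOHJ by 0.20 ± 0.071 (adjusted p = 0.0888), and both passed when arrays were centred on their medians (adjusted p = 0.0482 and 0.0499).

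With the block, 3 loci passed between plants labelled OXW6 and control, where 30.7% of all features did (11.7% higher and 19% lower). At an unadjusted p under 0.05 there were 6 with the block, against 43.2% of all features. In all 3 same-numbered pairs 3 loci were higher and 4 lower, against 62.3% of all features with 3 differences of one sign. RBOHA was higher by 0.28 (adjusted p = 0.0445), RBOHG lower by 0.73 (a difference of -0.73, adjusted p = 0.0024) and RBOHI lower (-0.78, adjusted p = 0.0401). RBOHG passed without each number in turn, RBOHA only without number 2 and RBOHI only without number 3, which gave counts of 1, 2 and 2 loci without numbers 1, 2 and 3. The dimmer RBOHB row also passed (-0.37, adjusted p = 0.0223), while the brighter one, which stands for the locus, did not (-0.31, adjusted p = 0.057).

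Genes that act with the oxidases were followed from lists chosen with earlier results of these data known. Of 15 kinases and calcium sensors that act on RBOH proteins, 5 rose in wild-type plants with arsenate and 0 fell, with a median difference of 0.32, beside 18.9% of all features higher and 20.2% lower. CBL1, a calcium sensor that brings kinases to the plasma membrane, rose from 13.22, 12.90 and 12.88 in control to 15.13, 14.96 and 14.98, a difference of 2.02 ± 0.11 (limma adjusted p = 1.0e-05). The calcium-dependent kinases CPK4 and CPK11 rose by 0.96 ± 0.11 (adjusted p = 0.00045) and 0.32 ± 0.070 (adjusted p = 0.0094). BIK1, the receptor-like cytoplasmic kinase that phosphorylates RBOHD, rose by 0.47 ± 0.11 (adjusted p = 0.012) and PBL13, a negative regulator of RBOHD, by 0.63 ± 0.18 (adjusted p = 0.024). The count was 6 with the block, where 23.7% of all features rose. It was 10 when arrays were centred on their medians and 3 in the block fit without number 3.

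Of 11 immune receptors and G protein subunits upstream of RBOHD, 8 rose and 0 fell, with a median difference of 0.48. Over all features, 18.9% were called higher and 20.2% lower. The 8 included the receptors of plant elicitor peptides PEPR1 (1.33 ± 0.14, limma adjusted p = 0.00032) and PEPR2 (1.03 ± 0.15, adjusted p = 0.0014), and the G protein alpha subunit GPA1 (0.42 ± 0.065, adjusted p = 0.0019). The receptors of bacterial flagellin and elongation factor Tu, FLS2 and EFR, rose by 1.23 ± 0.24 (adjusted p = 0.0059) and 0.95 ± 0.20 (adjusted p = 0.0082). The receptor-like kinases BAK1 and FER, which did not pass, differed by 0.15 and 0.028. Their control means of 15.48 and 15.80 were near the highest value reported (15.97), which left little room to rise. RBOHD itself, downstream of these receptors, differed by 0.15 as given above. Its control mean lay 0.27 below the highest value reported, which bounds the rise it could show.

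Of 9 transcripts known to mark reactive oxygen, 7 rose and 0 fell, with a median difference of 1.53. Over all features, 18.9% were called higher and 20.2% lower. In the block fit 8 of the 9 rose, beside 23.7% of all features. The zinc finger factors ZAT12, ZAT10 and ZAT6 rose by 3.44 ± 0.097 (limma adjusted p = 4.3e-07), 1.53 ± 0.15 (adjusted p = 0.00021) and 0.64 ± 0.11 (adjusted p = 0.0035). OXI1, an oxidative-signal-inducible kinase, rose by 2.33 ± 0.11 (adjusted p = 5.6e-06), AT1G19020 by 1.96 ± 0.12 (adjusted p = 1.5e-05) and AT1G57630 by 1.62 ± 0.18 (adjusted p = 0.00036). These transcripts respond to oxidants from any source, and their part in the RBOH values was not tested.

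Of 11 other apoplastic oxidant producers and sensors, 2 rose and 2 fell, with a median difference of 0.0070, shares close to the 18.9% and 20.2% of all features. The cysteine-rich receptor kinase CRK28 rose by 1.10 ± 0.19 (limma adjusted p = 0.0034) and CRK7 by 0.70 ± 0.24 (adjusted p = 0.0484), while CRK10 (-0.53 ± 0.14, adjusted p = 0.0206) and GHR1, a guard cell receptor kinase (-0.75 ± 0.20, adjusted p = 0.0194), fell. The cell wall peroxidases PRX33 and PRX34, which make apoplastic hydrogen peroxide beside the RBOHs, differed by 0.0070 and -0.012 and did not pass. PRX34 read 15.84 to 15.92 over the arrays of all groups, close to the highest value reported (15.97), so it had little room to rise. Leaving out control number 1, control number 2 or wild-type arsenate number 2 left 2 calls in place of 4, and leaving out wild-type arsenate number 1 left 1. In the block fit 3 rose and 2 fell, beside 23.7% and 26.6% of all features.

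**Figure D4:**
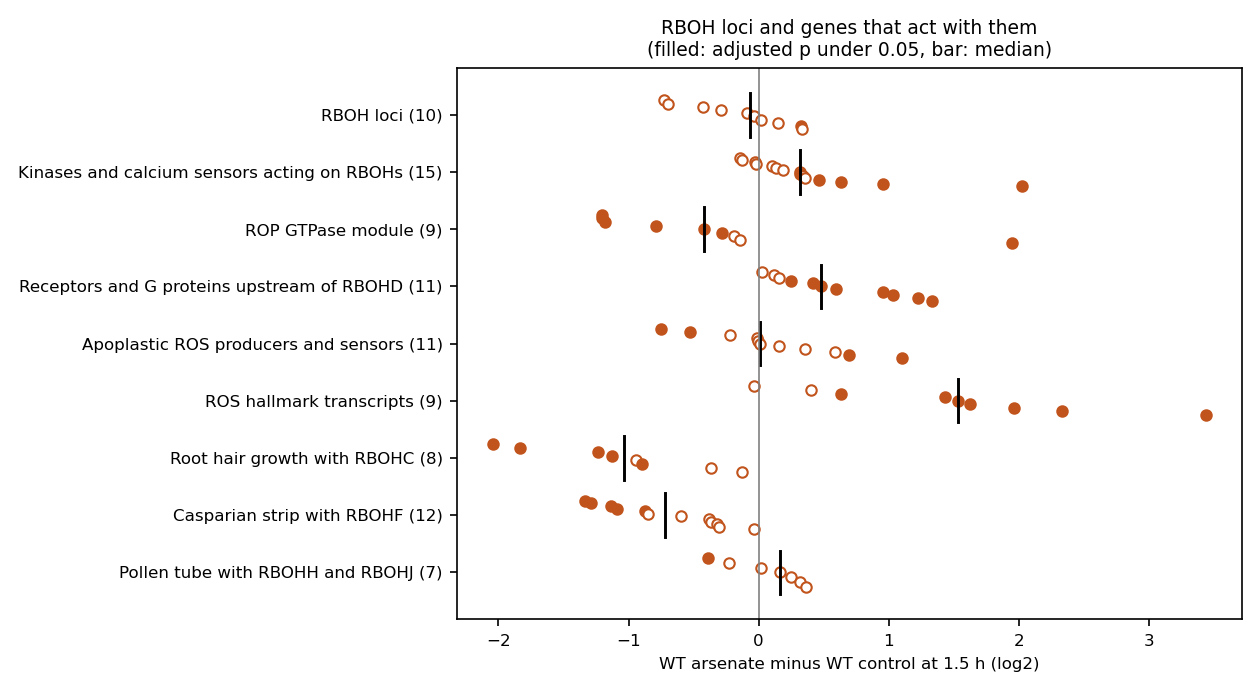
Difference of each gene between wild-type arsenate and control at 1.5 h, in log2, for the 10 RBOH loci and 8 lists of genes that act with them, with the number measured in brackets. Points are filled at an adjusted p under 0.05 and a bar marks each median: the RBOH median is -0.062, that of the receptors 0.48 and that of the root hair genes -1.04.

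In the ROP GTPase module, the small GTPases and exchange factors that direct RBOHs in tip growth, 6 of 9 fell and 1 rose, with a median difference of -0.42. Over all features, 20.2% were called lower and 18.9% higher. In the block fit 7 fell and 1 rose, beside 26.6% and 23.7% of all features. ROP1 fell (-1.20 ± 0.18, limma adjusted p = 0.0015), as did the exchange factors ROPGEF1 (-0.79 ± 0.11, adjusted p = 0.0011) and ROPGEF4 (-1.20 ± 0.29, adjusted p = 0.0149) and the GTPase ROP4 (-0.42 ± 0.096, adjusted p = 0.0115). ROPGEF11 rose by 1.94 ± 0.25 (adjusted p = 0.00076). Only 4 passed when wild-type arsenate number 3 was left out.

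Of 8 root hair genes that act with RBOHC, 5 fell and 0 rose, where 20.2% of all features fell and 18.9% rose. The median difference of the 8 was -1.04, and 7 fell with the block, where 26.6% of all features fell. They included the transcription factors RHD6 (-2.04 ± 0.23, limma adjusted p = 0.00038) and RSL2 (-1.83 ± 0.37, adjusted p = 0.0069) and the cell wall genes EXPA7 (-1.13 ± 0.23, adjusted p = 0.0077) and COBL9 (-1.23 ± 0.26, adjusted p = 0.0082). RHD6 read 11.98, 11.75 and 11.77 in control and 10.04, 9.48 and 9.86 in wild-type arsenate, groups that were far apart, while RBOHC differed by -0.09 with groups that overlapped.

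Of 12 Casparian strip genes that act with RBOHF, 5 fell and 0 rose, where 20.2% of all features fell and 18.9% rose. The median difference of the 12 was -0.72. The 5 included the peptides CIF2 (-1.33 ± 0.15, limma adjusted p = 0.00048) and CIF1 (-1.09 ± 0.18, adjusted p = 0.0026), their receptor GSO1 (-1.29 ± 0.28, adjusted p = 0.009) and the scaffold gene CASP4 (-1.14 ± 0.23, adjusted p = 0.0071). With the block 11 of 12 fell, beside the same 26.6% of all features, and without wild-type arsenate number 1 the count was 9. Root markers, which share 3 genes with these lists, averaged 14.62 to 14.97 on the control arrays, 14.09 to 14.52 on the wild-type arsenate arrays and 14.46 to 14.74 on the OXW6 arrays. Of these 5 markers 2 fell and 0 rose, beside the same 20.2% and 18.9% of all features. The 2, EXPA7 and MYB36, are members of the lists themselves, as is CASP1. The markers outside the lists were PYK10, which differed by 0.024 and did not pass, and TIP2;3, which differed by -0.77 and passed only with the block (limma adjusted p = 0.0839 without and 0.0014 with it). PYK10 read 15.84 to 15.94 on the 9 arrays, close to the highest value reported (15.97), so it had little room to rise. Of the 6 green tissue markers 0 passed without the block, where 20.2% of all features fell and 18.9% rose. With the block 1 fell, LHCB2.1 (-0.35, limma adjusted p = 0.0202), beside 26.6% of all features. The other green markers read close to the highest value reported. The part of the root and green markers in the lower values of the root lists, RBOHG and RBOHI was not tested.

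Of 7 pollen tube genes that act with RBOHH and RBOHJ, 1 fell and 0 rose, with a median difference of 0.17. Over all features, 20.2% were called lower and 18.9% higher. LLG2 fell by 0.39 (± 0.068, limma adjusted p = 0.0035), from a group mean of 9.04 to 8.65. It was dim, with 12.5% to 21.1% of features below its values. With the block 1 rose as well, the receptor kinase ANX2 (adjusted p = 0.012), which differed by 0.37 and did not pass without the block. Of all features, 23.7% were higher with the block. ANX2 was also dim, with means of 9.61 in control and 9.98 in wild-type arsenate. Pseudogene features, with a median level of 9.43, had a median difference of 0.60, and the part of that shift in ANX2 was not tested.

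In plants labelled OXW6 against wild type with arsenate, 0 members of these 8 lists passed limma without the block, and 1 Casparian strip gene was higher with it, where 0.0216% of all features were. Against control, the plants labelled OXW6 showed 6 kinases and sensors, 7 receptors and G proteins and 7 oxidant marker transcripts higher, with 0 lower in each of these lists, where 8.12% of all features were higher and 12.5% lower. In the same comparison 1 root hair gene, 3 Casparian strip genes, 1 pollen tube gene and 3 members of the ROP module were lower, 1 ROP module member was higher, and 1 apoplastic oxidant gene was higher and 1 lower. With the block 5 root hair genes, 4 Casparian strip genes and 4 ROP module members were lower, where 19% of all features were. CBL1 differed by 2.05 ± 0.11 (adjusted p = 9.9e-06) and OXI1 by 2.48 ± 0.11 (adjusted p = 4.3e-06) there, beside 0.17 for RBOHD. The control mean of RBOHD lay 0.27 below the highest value reported, so a rise like theirs could not show. The control means of CBL1 and OXI1 were 13.00 and 12.19.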

How the data were processed

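RNA of 9 samples was labelled with Cy3 and hybridised 1 sample to an array, per the labels. The authors deposited log2 expression, which per the submitters' processing notes was summarised with RMA (version not given in the sources used here). The method includes a background correction and a quantile normalization between arrays. Every column of the table was used. Another 12 arrays (ATH1, 8 h) were not used here.

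Values were fitted with limma (version 3.58.1, R 4.3.3): lmFit over the 3 groups without a block, contrasts.fit and eBayes. Tests were two-sided, p-values were Benjamini-Hochberg adjusted over 37118 features, and an adjusted p under 0.05 was called. The fit without the block was tested on simulated data with independent noise and few changed features. That simulation held no replicate-number effect, so it does not bear on the use of the block. Replicate numbers come from the sample titles. Between arrays of different groups, deviations from group means correlated at 0.29 to 0.63 for the same number and at -0.56 to 0.18 for different numbers. The 3 deviations of a group cancel out, so positive correlations at the same number themselves lower those between different numbers. Same-numbered arrays thus deviated alike, though the labels do not say what they share. Blocked values stand beside RBOH results whose call they change. For the lists they are given mainly as counts, not for each member whose call changes.

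The oxidase loci, gene lists and markers were chosen with earlier results of these data known. A locus is counted by its brightest row. Called members named from a list are among its 6 with the smallest adjusted p, not always all of them, and members and markers named without a call, and those called only with the block, were chosen after their values were seen. Likeness is the root mean square distance over the 9 arrays between profiles of log2 minus the control mean, among features of protein-coding nuclear loci. Of the loci on the array, 31993 matched the RefSeq gene table (TAIR10.1 annotation) and 634 did not. Alternatives were a further quantile normalization, median centring, a filter on low values, the compared groups only, array weights, a trended and robust prior, coding features only, the block, the second RBOHB row and each array left out. The block with centring and the block without each number were added after the data were seen.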

Additional observations from a re-analysis of the deposited data

How the results depend on the processing

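With 3 arrays a group, precision is limited. Between wild-type arsenate and control the count of RBOH loci called was 1 without the block and 6 with it, and 5 with block and centring, and with the block it was 1 to 4 with one number left out. It was 2 with median centring, 0 without features below the 40 percentile (8 loci tested), 3 with array weights, 2 with a trended and robust prior, and 1 to 1 with single arrays left out. Between plants labelled OXW6 and wild type it was 0, 1 with array weights, and 0 to 0 with single arrays left out. Between plants labelled OXW6 and control it was 0, 2 with centring, 1 each with the filter, array weights and the trended and robust prior, 3 with the replicate block, 5 with block and centring, 1 to 2 with the block and one number left out, and 0 to 0 with single arrays left out. The cause was not tested. Of 196 values of the RBOH rows under alternatives, 153 kept sign and side of the threshold for arsenate against control (2 lost a call, 30 gained one, 11 changed sign), 173 for the OXW6 label with arsenate (0, 1 and 22), and 166 against control (0, 20 and 10).

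Values that changed sign were all of uncalled differences. For arsenate against control, RBOHC was 0.0065 with array weights, RBOHF 0.013 after quantile normalization and 0.042 with centring, with or without the block, and RBOHH -0.051 after quantile normalization. With the OXW6 label under arsenate, array weights gave -0.0051 for RBOHC, 0.014 for RBOHF, -0.081 for RBOHH, 0.33 for RBOHI and 0.031 for WRKY6, and centring gave -0.020 for RBOHD. For OXW6 against control, RBOHC was 0.037 with centring and 0.0014 with array weights, and RBOHH -0.058 with array weights. Single arrays left out gave -0.22 to 0.0092 for RBOHC, -0.11 to 0.049 for RBOHF and -0.094 to 0.081 for RBOHH with arsenate. With the OXW6 label they gave -0.24 to 0.11 for RBOHA, -0.010 to 0.27 for the brighter RBOHB row, -0.031 to 0.19 for RBOHE, -0.29 to 0.27 for RBOHG, -0.44 to 0.43 for RBOHI and -0.028 to 0.0075 for WRKY6. Against control they gave -0.13 to 0.097 for RBOHC. With the block and one number left out, sign changes gave 0.037 for RBOHF and -0.045 for RBOHH with arsenate, 0.018 for RBOHA, -0.0071 for RBOHD, 0.050 and 0.025 for RBOHG, 0.067 for RBOHI and 0.012 for WRKY6 with the OXW6 label, and 0.039 and 0.051 for RBOHC against control.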

Other observations

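Over the 9 arrays, the profile of RBOHD (log2 minus the control mean) was closest to those of AT1G80380 (root mean square distance 0.029), KCS4 (0.033), a 3-ketoacyl-CoA synthase, AT1G01910 (0.033), RAP2.4 (0.033), an AP2/ERF transcription factor, and AT1G52325 (0.034). Such a flat profile was common: 1598 of 30890 features of protein-coding nuclear loci lay within 0.1 of it. RAP2.4 differed by 0.16 and KCS4 by 0.14 between wild-type arsenate and control, beside 0.15 for RBOHD. AT1G52325 had a mean level of 8.23, at the low end of the array, while RBOHD read near the top.

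RBOHJ had the smallest adjusted p of the RBOH rows in the comparison with control and in that of the plants labelled OXW6 with wild type, both without the replicate block, which is the fit the choice was made on. Its profile was closest to those of OPT9 (distance 0.045), an oligopeptide transporter, AT2G10440 (0.058), YUC1 (0.059), an auxin biosynthesis gene, NET2B (0.059), an actin-binding protein gene, and PKR2 (0.060). Within 0.1 of it lay 318 of 30890 features. OPT9 differed by 0.32 with arsenate in wild type and by -0.12 with the OXW6 label, beside 0.33 and -0.13 for RBOHJ, and its mean level of 8.22 was likewise at the low end of the array.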
